A study of Mus musculus with 6 samples.

Results

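Transcripts of heme breakdown and iron handling were followed in the mouse lung carcinoma line Lewis through 10 genes chosen by symbol from the 54446 genes of the deposited tables: Hmox1, Blvrb, Slc11a2, Tfrc, Steap3, Fth1, Ftl1, Ncoa4, Slc40a1 and Ireb2. All 10 were found, each under a single Ensembl identifier. The series compares 3 libraries of untreated stem-like cells (Control) with 3 libraries of stem-like cells given RT-MPs, a name that the labels leave unexpanded, and every library was collected at 48 h. Cells of both groups carried the label WT and were kept in medium with 2% serum, and no agent other than RT-MPs is named. The labels describe one established line in culture and do not say whether replicates were separate cultures, so p-values measure the spread between these samples only, which may be technical.

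Heme oxygenase opens the heme ring and releases iron, carbon monoxide and biliverdin, which biliverdin reductases turn into bilirubin. Most cells take up iron as transferrin through the transferrin receptor, reduce it in endosomes, carry it into the cytosol with the transporter DMT1, store it in ferritin and release it through ferroportin. Iron-regulatory proteins bind a short hairpin, the iron-responsive element, in the untranslated regions (UTRs) of several of these mRNAs: a hairpin in the 5′ UTR holds back translation when iron is scarce, and hairpins in the 3′ UTR protect the transferrin receptor mRNA from decay. In tumor cells, stored and free iron also bears on growth and on ferroptosis, a form of death driven by lipid peroxidation.

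Of the 10 genes, 5 carried such a hairpin in the UTR of a protein-coding transcript of GENCODE M21 (GRCm38). They are shown because they are what sets these mRNAs apart from the rest of the group. The search read the sense strand for a C, any 5 bases, CAGTGN as the loop, and bases on the 3′ side that pair with those 5 (G with T allowed), with at most 1 unpaired base. A hairpin paired at all 5 positions was found in 159 of 21901 protein-coding genes, 0.726%, and 434 genes, 1.98%, had a match when 1 unpaired base was allowed. The capitals below mark the 6 bases of the loop in 30 bases of transcript, written 5′ to 3′.
Fth1, 5′ UTR, chr19:9982732-9982761, plus strand: ttcctgcttcaaCAGTGCttgaacggaacc
Ftl1, 5′ UTR, chr7:45459778-45459807, minus strand: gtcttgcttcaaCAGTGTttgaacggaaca
Slc40a1, 5′ UTR, chr1:45925464-45925493, minus strand: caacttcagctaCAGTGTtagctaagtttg
Slc11a2, 3′ UTR, chr15:100395152-100395181, minus strand, 1 unpaired base: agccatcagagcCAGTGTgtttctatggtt
Tfrc, 3′ UTR, chr16:32631219-32631248, plus strand: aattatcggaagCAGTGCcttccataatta
Tfrc, 3′ UTR, chr16:32631598-32631627, plus strand: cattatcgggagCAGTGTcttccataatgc
Tfrc, 3′ UTR, chr16:32631663-32631692, plus strand: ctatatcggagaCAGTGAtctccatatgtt
Tfrc, 3′ UTR, chr16:32631710-32631739, plus strand: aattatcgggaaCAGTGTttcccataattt
The ferritin mRNAs Fth1 and Ftl1 share the stem bases around the loop, and Tfrc holds 4 matches. A match describes these letters and does not show that a protein bound them. For Hmox1, Blvrb, Steap3, Ncoa4 and Ireb2 these letters were not found in the transcripts searched. Gene values were deposited as 1 number per gene, so transcripts of Slc11a2 with and without the hairpin are summed in what follows.

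The tables hold FPKM (fragments per kilobase of gene, scaled to library size), and the library totals that these values imply ranged from 16950215 to 21876554 reads. RT-MPs replicate 3 stood apart: Gm42418, Gm26917, Gm23935, Lars2 and Rn7sk, 5 genes that collect ribosomal or other noncoding RNA reads, took 6.56% of its reads, against 0.148% to 0.175% elsewhere, and on the log2(FPKM + 1) scale it correlated with the others at 0.959 to 0.969, against 0.984 to 0.993 for all other pairs. It also differed by gene length, as the plot of deviation by exon length shows. For genes with over 8 kb of exon, the median log2 deviation of this library from RT-MPs replicates 1 and 2 was −0.29, and for genes under 1 kb it was 0.20, whereas the same medians of the Control libraries, each against the other two, lay between −0.02 and 0.01. Across 11910 genes, which are not independent replicates, Spearman's rho between exon length and this deviation was −0.44 in RT-MPs replicate 3. Values without that library are given where it decides a call, a direction or the size of a result.

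**Figure D1:**
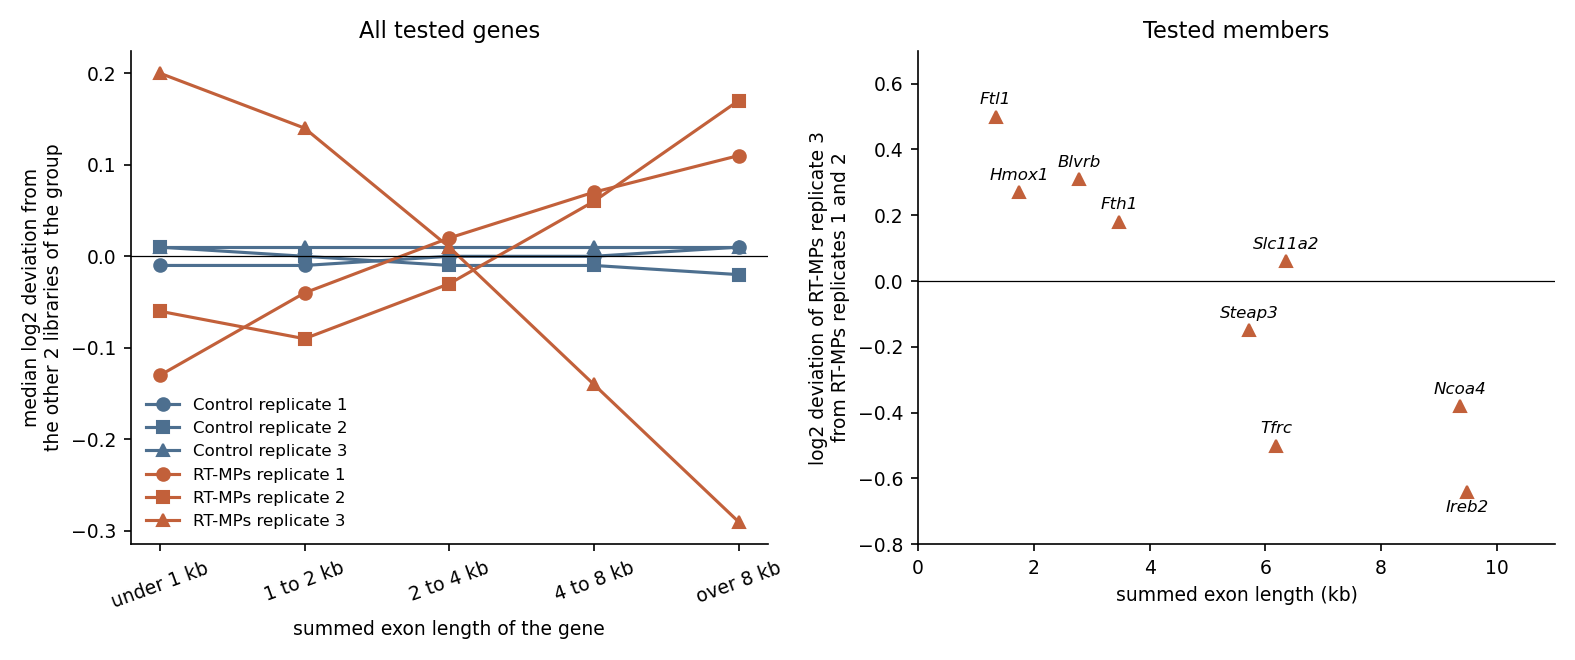
Left, median log2 deviation of each library from the other 2 libraries of its group (y axis) by summed exon length of the gene (x axis) for all tested genes; right, log2 deviation of RT-MPs replicate 3 from RT-MPs replicates 1 and 2 for the 9 tested heme and iron genes against their exon length in kb. The line of RT-MPs replicate 3 falls from 0.20 to −0.29, and among the heme and iron genes Ftl1 lies highest at 0.50 and Ireb2 lowest at −0.64.

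Of the cell type markers examined, the macrophage genes Adgre1, Csf1r, Cd163 and Vsig4 were listed at 0 in all 6 libraries. Of 10 macrophage markers only Cd68 and Cd14 reached a mean of 1 FPKM, and the list summed to 36.7 to 41.6 FPKM in Control and 46.8 to 50.3 in RT-MPs. No erythroid marker among 10 reached 1 FPKM (sums of 0.376 to 1.27), and the globin genes Hba-a1, Hba-a2 and Hbb-bt were listed at 0. Of 9 fibroblast markers 5 reached 1 FPKM, led by Col3a1 (mean 134 FPKM) and Dcn (41.1), and the list summed to 208 to 211 FPKM in Control and 179 to 201 in RT-MPs. From Control to RT-MPs the mean of Dcn rose (38.6 to 43.6 FPKM). The means of Col3a1 (143 to 125), Pdgfra (16.2 to 12.6), Lum (5.86 to 4.21) and Pdgfrb (5.94 to 5.85) fell. Col1a1, Col1a2 and Acta2 averaged 0.00652, 0.00847 and 0.0706 FPKM, and Thy1 was listed at 0. Of 5 epithelial markers Krt8 and Krt18 reached 1 FPKM, while Epcam was listed at 0, and the sums were 171 to 182 FPKM in Control and 149 to 167 in RT-MPs. The sums of these 3 lists did not overlap between the groups, the macrophage sum being higher in RT-MPs and the other 2 lower. Among single genes with a mean of at least 1 FPKM, 9.61% were higher without overlap and 30.4% lower. The macrophage sum was mostly Cd68 (mean 30.2 FPKM in Control and 39.3 in RT-MPs) and the epithelial sum mostly Krt8 (168 and 150). The part of these lists in the results was not tested. Of 10 genes listed for a stem-like state Cd44, Ly6a, Klf4 and Myc reached 1 FPKM and Nanog was listed at 0. In bulk RNA, a change in the number of expressing cells and a change in RNA per cell cannot be told apart.

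The comparison asks which of these transcripts differed after RT-MPs. Hmox1 and Slc11a2 rose, by 1.43-fold and 1.46-fold, and they were the 2 genes called among the 9 with a mean of at least 1 FPKM, the level required for testing. None of the 9 was called lower and 7 were not called. Called means an adjusted p under 0.05 in limma, a linear model fitted to log2(FPKM + 1) of all 11915 tested genes, with Benjamini-Hochberg adjustment over all of them. Over all tested genes 3.99% were called, 1.29% higher and 2.70% lower. Without RT-MPs replicate 3, Hmox1 and Slc11a2 were again the 2 called of 9, where 21.4% of all tested genes were called. With limma's arrayWeights, which lowers the weight of libraries that fit poorly, 4 of the 9 were called (Fth1 and Blvrb too), where 38.4% of all tested genes were. Rescaling every library to a common sum, by which RT-MPs replicate 3 is lowered since its FPKM sum to 585752 against 296966 to 303798 elsewhere, moved the median of all genes to −0.33; Hmox1 and Slc11a2 were then at 0.22 and 0.25 and not called (adjusted p = 0.692 and 0.653). Of the genes called, 32.4% were higher, a share that was 62.9% after median-ratio scaling, 56.0% after quantile normalization and 58.5% after removing each library's trend with exon length. In 5 of the 9 genes the RT-MPs values all lay above the Control values and in 2 all below, against 9.61% and 30.4% of all tested genes, 40% together. The median log2 change was 0.15 over the 9 genes and −0.09 over all tested genes, so a change near 0 on the deposited scale stood above that of the typical gene.

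**Figure D2:**
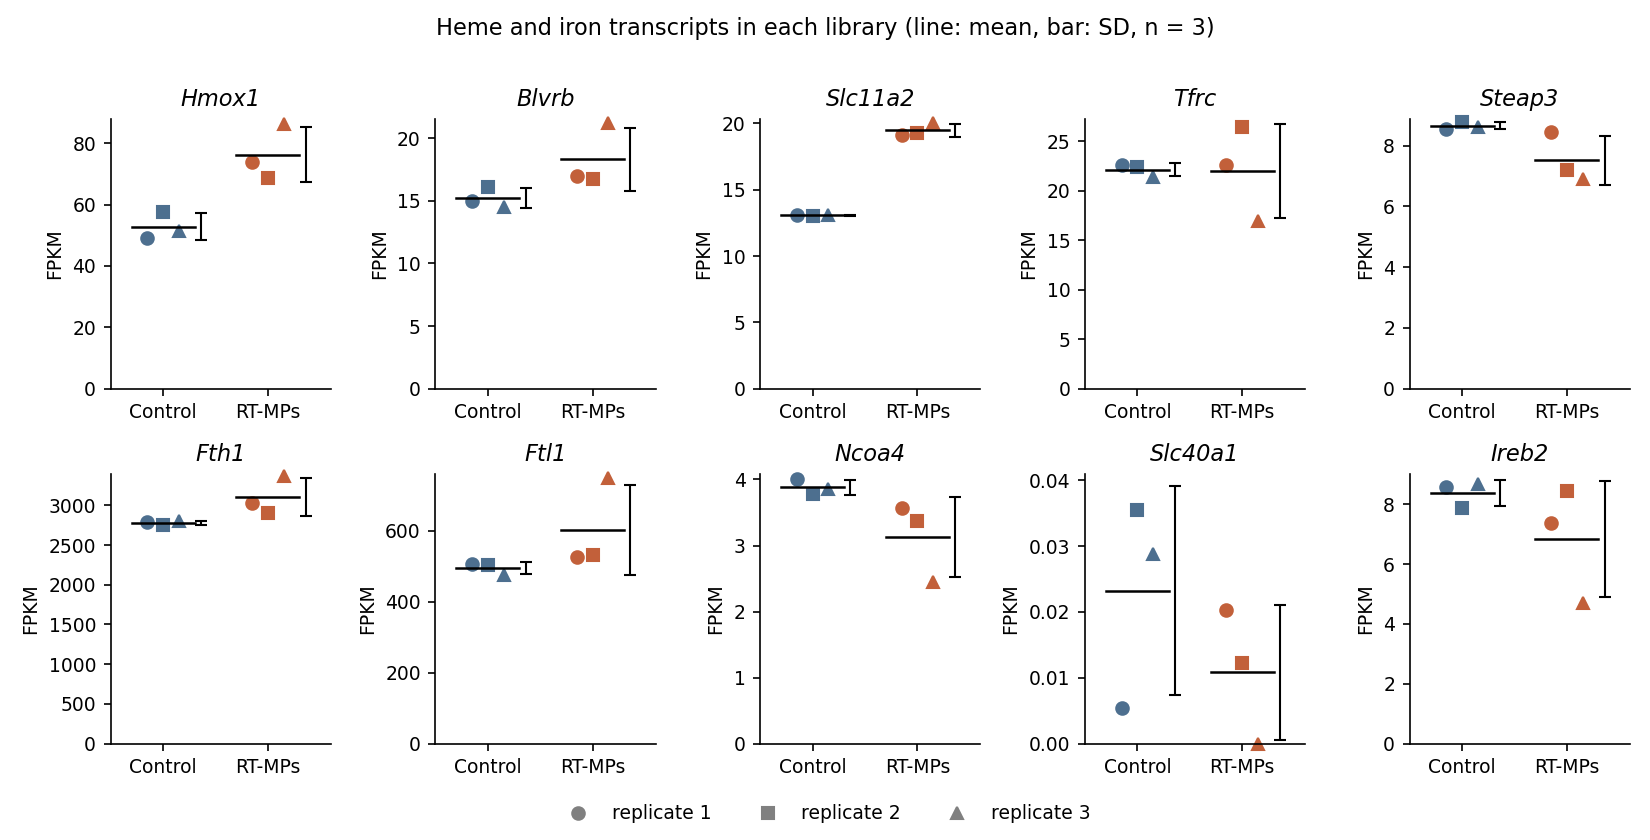
FPKM of each of the 10 heme and iron genes (y axes, each starting at 0) in the 3 Control and 3 RT-MPs libraries; symbols mark the replicate, lines the mean and bars the SD (n = 3). The Hmox1 and Slc11a2 values of RT-MPs all lie above those of Control, while Tfrc and Ireb2 overlap and RT-MPs replicate 3 is the lowest library for both.

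In the heme breakdown arm, Hmox1 encodes the inducible heme oxygenase and lies on chromosome 8 (75093621 to 75100589, plus strand, mm10). Its level was 49.2, 57.7 and 51.4 FPKM in Control replicates 1 to 3 and 73.9, 68.8 and 86.1 FPKM in RT-MPs replicates 1 to 3. The groups did not overlap, and the highest value came from RT-MPs replicate 3. The mean was 52.8 ± 4.41 FPKM for Control against 76.2 ± 8.88 for RT-MPs (SD, n = 3 each, as for all means below). The log2 change was 0.52 (SE 0.10, 95% interval 0.28 to 0.76, limma adjusted p = 0.0468), and 0.43 (adjusted p = 0.0142) without RT-MPs replicate 3. The call sits close to the threshold: it was not made with any single Control library left out (adjusted p = 0.212, 0.135 and 0.222 without Control replicates 1, 2 and 3), nor without RT-MPs replicate 1 or 2 (0.0853 and 0.0934), nor after scaling the libraries by median ratio, where the log2 change was 0.62 and the adjusted p 0.0504.

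Hmox2, the constitutive heme oxygenase, averaged 18.8 ± 0.928 FPKM in Control against 17.1 ± 0.683 in RT-MPs and was not called (log2 change −0.13, SE 0.06, limma adjusted p = 0.249). Because both genes were read in the same library, a common scale factor cancels in their ratio, apart from the 1 FPKM added to each. A deviation by exon length, as in RT-MPs replicate 3, does not cancel in ratios of genes of unlike length. The log2 ratio of Hmox1 to Hmox2 was 1.42, 1.55 and 1.35 in Control and 2.04, 2.00 and 2.22 in RT-MPs, a difference of 0.65 or 1.56-fold. All 3 RT-MPs ratios exceeded all 3 Control ratios. The exact two-sided permutation test gave p = 0.1, the smallest value that 3 against 3 libraries allow, so no ratio can pass a threshold of 0.05 in this design, and the p adjusted over the 7 ratios compared was 0.175. Without RT-MPs replicate 3 the difference was 0.58.

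Blvrb encodes biliverdin reductase B, a reductase of biliverdin IX-beta and of flavins. It had 15, 16.1 and 14.5 FPKM in Control and 17, 16.7 and 21.2 FPKM in RT-MPs, without overlap. Its log2 change of 0.25 (SE 0.10, 95% interval 0.01 to 0.49) was not called (limma adjusted p = 0.174), and was 0.14 without RT-MPs replicate 3 and −0.04 after rescaling to a common sum. Blvra, the main biliverdin reductase of adult tissue, had 5.97 ± 0.383 FPKM in Control against 4.73 ± 0.244 in RT-MPs, all RT-MPs values below all Control values, and was not called either (log2 change −0.28, SE 0.07, adjusted p = 0.0739), though it was called lower without RT-MPs replicate 3 (−0.31, adjusted p = 0.0221). The log2 ratio of Blvrb to Blvra was 1.11, 1.34 and 1.2 in Control and 1.65, 1.69 and 1.89 in RT-MPs, a difference of 0.53 with no overlap (exact permutation p = 0.1, adjusted 0.175), and 0.45 without RT-MPs replicate 3. The inducible oxygenase against its constitutive partner and Blvrb against Blvra thus both had higher ratios in all RT-MPs libraries.

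In the uptake arm, Slc11a2 encodes DMT1, the proton-coupled carrier that moves ferrous iron across the endosomal membrane (chromosome 15, 100387898 to 100425072, minus strand). It had 13.1, 13.0 and 13.1 FPKM in Control and 19.1, 19.3 and 20 FPKM in RT-MPs. The groups did not overlap, and the gap between them was far wider than the SD of either, 0.0984 FPKM for Control and 0.475 for RT-MPs. The log2 change was 0.54 (SE 0.05, 95% interval 0.41 to 0.67, limma adjusted p = 0.0150), and 0.52 without RT-MPs replicate 3 (adjusted p = 0.00372). With any single library left out the change stayed between 0.52 and 0.55. It was nevertheless not called without Control replicate 1, 2 or 3 (adjusted p = 0.147, 0.0865 and 0.153) or without RT-MPs replicate 2 (0.0658), fits in which at most 10 of all tested genes were called.

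Tfrc encodes the transferrin receptor and carries the 4 hairpins printed above. It had 22.6, 22.4 and 21.4 FPKM in Control and 22.6, 26.5 and 17 FPKM in RT-MPs, so the RT-MPs libraries lay on both sides of the Control values. Its log2 change was −0.03 (SE 0.15, 95% interval −0.38 to 0.32, limma adjusted p = 0.918), and 0.14 (adjusted p = 0.197) without RT-MPs replicate 3, where the sign turned, as it did after median-ratio scaling (0.07) and quantile normalization (0.03). With 6.18 kb of exon, Tfrc deviated by −0.50 in RT-MPs replicate 3 from the other two RT-MPs libraries, beside a median of −0.14 for genes of 4 to 8 kb; the part of length in this deviation was not tested.

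The ratio of Slc11a2 to Tfrc sets the endosomal carrier against the receptor. Its log2 value was −0.74, −0.74 and −0.66 in Control and −0.23, −0.44 and 0.22 in RT-MPs, a difference of 0.57 without overlap (exact permutation p = 0.1, adjusted 0.175), and 0.38 without RT-MPs replicate 3. That library gave the highest ratio, through a low Tfrc value.

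Steap3, the endosomal ferrireductase that readies iron for DMT1, had 8.56, 8.78 and 8.61 FPKM in Control and 8.43, 7.20 and 6.91 FPKM in RT-MPs. The groups did not overlap, but RT-MPs replicate 1 lay next to the Control values, and the log2 change of −0.19 (SE 0.08, 95% interval −0.38 to 0.01) was not called (limma adjusted p = 0.197), and was −0.13 without RT-MPs replicate 3. Slc39a14 (ZIP14), a carrier of iron not bound to transferrin, had a log2 change of −0.21 (SE 0.11) and was not called. Scara5, a scavenger receptor that takes up ferritin in mouse, fell from 3.59 ± 0.252 to 2.09 ± 0.172 FPKM (log2 change −0.57, SE 0.08, adjusted p = 0.0293). Trf, the gene of transferrin itself, was listed at 0 in all 6 libraries.

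In storage, Fth1 and Ftl1 encode the heavy and light chains of ferritin. The heavy chain carries the ferroxidase activity and the light chain favors core formation. Fth1 was the most abundant of the 10 transcripts and ranked between 4 and 7 among all genes by FPKM in each library. It had 2784, 2754 and 2806 FPKM in Control and 3034, 2903 and 3368 FPKM in RT-MPs, which did not overlap. Its log2 change of 0.15 (SE 0.08, 95% interval −0.04 to 0.34) was not called (limma adjusted p = 0.258). The change was 0.09 without RT-MPs replicate 3, and it was −0.10 under quantile normalization and −0.15 after rescaling to a common sum, so its direction depends on scaling.

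Ftl1 had 508, 504 and 475 FPKM in Control and 526, 532 and 748 FPKM in RT-MPs. The groups did not overlap, yet RT-MPs replicates 1 and 2 lay close to Control and replicate 3 far above them. The log2 change was 0.26 (SE 0.14, 95% interval −0.07 to 0.59, limma adjusted p = 0.276) and 0.09 without RT-MPs replicate 3, and −0.05 after rescaling to a common sum. The log2 ratio of Fth1 to Ftl1 was 2.45, 2.45 and 2.56 in Control and 2.53, 2.45 and 2.17 in RT-MPs, overlapping (difference −0.11, exact permutation p = 0.5), and without RT-MPs replicate 3 the difference was 0.00. Ferritin genes have many near-identical copies in the genome, which can split or share reads. Those found by symbol were low: Ftl1-ps1, annotated as protein-coding in GENCODE M21, averaged 5.67 FPKM in Control against 4.32 in RT-MPs, and Ftl1-ps2 was listed at 0. Fth-ps2 ranged from 0.457 to 1.41 FPKM. Exons of Ftl1 overlap Gm10252 and Gm22133 and those of Slc11a2 overlap Gm5475, and all 3 were listed at 0 in every library.

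Ncoa4, the receptor that delivers ferritin to lysosomes for breakdown, had 4.01, 3.78 and 3.85 FPKM in Control and 3.57, 3.37 and 2.44 FPKM in RT-MPs. All RT-MPs values lay below Control, and the log2 change of −0.25 (SE 0.12, 95% interval −0.53 to 0.03) was not called (limma adjusted p = 0.218). Without RT-MPs replicate 3 it was −0.13. Tested members of the list of other ferritin and iron chaperone genes included Pcbp1 and Pcbp2, which hand iron to ferritin. Their log2 changes were −0.08 (SE 0.06) and 0.01 (SE 0.05), and none of the 5 tested genes of that list was called.

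On the export side, Slc40a1, the gene of ferroportin, the known cellular iron exporter of mammals, was close to the limit of detection. Its values correspond to 1, 6 and 5 reads in Control and 4, 2 and 0 reads in RT-MPs, 12 against 6 in total, or 0.0054, 0.0355, 0.0288, 0.0203, 0.0122 and 0.00 FPKM. A count of 0 in RT-MPs replicate 3 allows up to 3 reads, 0.0197 FPKM, and such limits cover counting error only. The groups overlapped, and at this depth no difference was detectable. It was the 1 gene of the 10 left out of the test. The ferroxidases that work with ferroportin split: Cp (ceruloplasmin) averaged 102.1 ± 2.10 FPKM in Control against 112.4 ± 23.0 in RT-MPs and was not called (log2 change 0.12, SE 0.15), while Heph (hephaestin) had 0.0128 and 0.0182 FPKM. For Cp, RT-MPs replicates 1 and 2 lay above every Control value and replicate 3 below them all. Without replicate 3 Cp was called higher (log2 change 0.30, limma adjusted p = 0.00792). Hepcidin, the hormone that removes ferroportin, was listed at 0 for both of its mouse genes, Hamp and Hamp2.

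Iron-regulatory control was read from Ireb2, the gene of iron-regulatory protein 2. It had 8.58, 7.87 and 8.68 FPKM in Control and 7.38, 8.45 and 4.70 FPKM in RT-MPs. RT-MPs replicate 2 lay among the Control values and replicate 3 far below, and the log2 change of −0.29 (SE 0.18, 95% interval −0.72 to 0.14) was not called (limma adjusted p = 0.339). Without RT-MPs replicate 3 the change was −0.07. Aco1, the cytosolic aconitase that becomes iron-regulatory protein 1 when it loses its iron-sulfur cluster, fell from 11.7 ± 0.148 to 9.15 ± 0.466 FPKM (log2 change −0.33, SE 0.06, adjusted p = 0.0424). The log2 ratio of Ireb2 to Aco1 overlapped between the groups (difference 0.04, exact permutation p = 0.8; 0.22 without RT-MPs replicate 3). Fbxl5, the iron-sensing subunit of the ubiquitin ligase that degrades iron-regulatory proteins, was not called (log2 change −0.05, SE 0.11, and 0.07 without RT-MPs replicate 3), whereas Skp1a, a general subunit of that ligase class, fell from 46.2 ± 1.29 to 34.5 ± 3.28 FPKM (log2 change −0.41, SE 0.08, adjusted p = 0.0452).

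**Figure D3:**
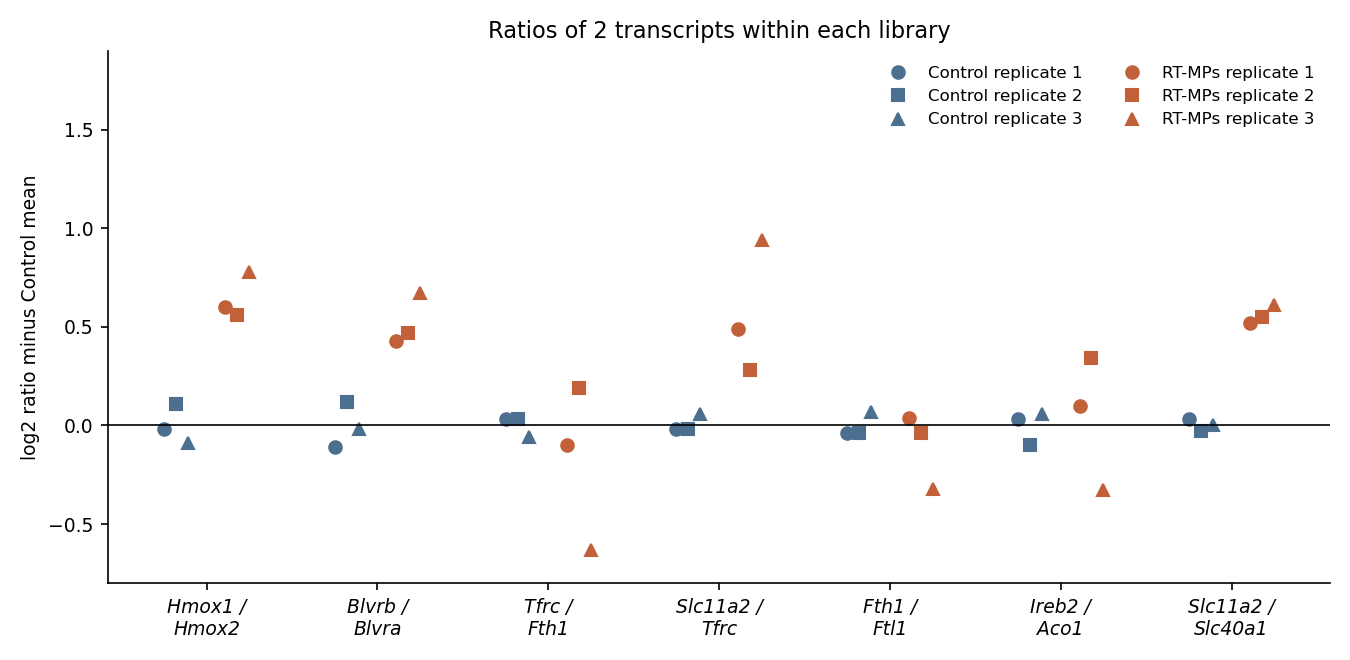
Log2 ratio of 2 transcripts within each library, minus the mean of the 3 Control libraries (y axis), for the 7 pairs named on the x axis. In 4 pairs all RT-MPs points lie above all Control points, and Tfrc to Fth1, Fth1 to Ftl1 and Ireb2 to Aco1 overlap, with RT-MPs replicate 3 lowest in each of those.

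Of the 7 within-library ratios, 4 were higher in all RT-MPs libraries, 3 overlapped and none was lower in all. No such share was computed over all pairs of genes, and 40% of single tested genes did not overlap. The 4 ratios are not independent, since Slc11a2 is set against both Tfrc and Slc40a1. The fourth, Slc11a2 to Slc40a1, sets iron import against export. Its log2 value was 3.81, 3.75 and 3.78 in Control and 4.30, 4.33 and 4.39 in RT-MPs, but Slc40a1 lay so near 0 that the ratio follows Slc11a2 and the added 1 FPKM. Tfrc to Fth1, uptake against storage, was −6.88, −6.88 and −6.97 in Control and −7.01, −6.72 and −7.54 in RT-MPs (exact permutation p = 0.7). The order of levels was the same in both groups from the top down to Tfrc: Fth1, Ftl1, Hmox1, Tfrc. In Control Blvrb (15.2 ± 0.830 FPKM) stood above Slc11a2 (13.1 ± 0.0984), and in RT-MPs Slc11a2 (19.5 ± 0.475) above Blvrb (18.3 ± 2.49), with overlapping values in the latter group, where the Tfrc values (17 to 26.5) overlapped both. Steap3, Ireb2, Ncoa4 and Slc40a1 followed in both groups, and Steap3 and Ireb2 were not separated beyond their spread.

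Beyond the 10 genes, 104 other genes of heme and iron metabolism were listed by role, 103 were in the tables and 81 were tested. Of these 1 rose, 3 fell and 77 were not called, which is 1.23% and 3.70%, near the 1.29% and 2.70% of all tested genes. Their median log2 change was −0.05, against −0.09 overall. The gene that rose was Mafg, a small Maf protein that pairs with NRF2 or with BACH1 at antioxidant response elements, from 22.6 ± 0.622 to 27.5 ± 0.123 FPKM (log2 change 0.27, SE 0.05, limma adjusted p = 0.0459). Those that fell were Scara5, Aco1 and Skp1a, described above. The count rested on the libraries used: without RT-MPs replicate 3, 8 of the 81 (9.88%) were called higher and 16 (19.8%) lower, where 6.26% and 15.1% of all tested genes were, and none of the 81 was called without Control replicate 1, 2 or 3 or without RT-MPs replicate 1 or 2.

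Of the other regulators of Hmox1 transcription, Bach1, Nfe2l2, Keap1 and the small Maf genes Maff and Mafk were not called. Maff and Mafk are named after their values were seen: Maff averaged 30.7 ± 3.14 FPKM in Control against 41.8 ± 5.34 in RT-MPs (log2 change 0.43, SE 0.11, limma adjusted p = 0.0767), the largest log2 change of that list, and Mafk had a log2 change of −0.20 (SE 0.07). Without RT-MPs replicate 3, Maff was called higher (0.33, adjusted p = 0.0371) and Mafk lower (−0.22, adjusted p = 0.0450). Bach1, its heme-sensitive repressor, had a log2 change of −0.14 (SE 0.13), and 0.02 without RT-MPs replicate 3. Nfe2l2, the gene of NRF2, averaged 73.7 ± 0.852 FPKM in Control against 67.8 ± 5.03 in RT-MPs (log2 change −0.12, SE 0.07, limma adjusted p = 0.295). For Keap1, the adaptor through which NRF2 is degraded, the log2 change was −0.27 (SE 0.06, adjusted p = 0.0608), and it was called lower without RT-MPs replicate 3 (−0.26, adjusted p = 0.0214).

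The counts in the remaining lists stand beside 3.99% called among all tested genes. Heme synthesis held no called gene among 12 tested, with 5 positive and 7 negative log2 changes, where all tested genes had 3947 positive and 7968 negative. Without RT-MPs replicate 3, Abcb10, Alad and Uros were called lower (limma adjusted p = 0.0262, 0.0204 and 0.0454) and Ppox higher (0.0436). In that fit 15.1% of all tested genes were called lower and 6.26% higher. Alas1, the first and rate-limiting enzyme outside erythroid cells, had 7.71 ± 0.489 and 9.05 ± 0.541 FPKM (log2 change 0.21, SE 0.07, limma adjusted p = 0.137), and Fech, which inserts the iron, had a log2 change of −0.09 (SE 0.09). Heme transport likewise held no called gene among 6: Slc48a1, which brings heme out of lysosomes, had 48.6 ± 0.610 and 56.9 ± 1.66 FPKM (log2 change 0.22, SE 0.05, adjusted p = 0.0636; called higher without RT-MPs replicate 3, adjusted p = 0.0126), and Flvcr1, a heme exporter in the plasma membrane, −0.19 (SE 0.08). Lrp1 was also called higher without RT-MPs replicate 3 (log2 change 0.18, limma adjusted p = 0.0426). None of the 27 tested genes of mitochondrial iron and iron-sulfur clusters was called, and their median was −0.02, against −0.09 for all tested genes. Without RT-MPs replicate 3, Nfs1, Nfu1, Nubp2 and Fam96a were called lower (limma adjusted p = 0.0151, 0.0208, 0.0221 and 0.0469) and none of this list higher. The shares over all tested genes in that fit were 15.1% lower and 6.26% higher. Slc25a37 (mitoferrin-1), an iron importer of mitochondria, had 87.5 ± 0.747 and 85.5 ± 8.27 FPKM. Its log2 change was −0.04, and 0.04 without RT-MPs replicate 3. Iscu, the scaffold on which clusters are built, had 9.62 ± 0.173 and 9.52 ± 0.701 FPKM. None of the 3 tested mRNAs outside the 10 genes with a known iron-responsive element was called.

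**Figure D4:**
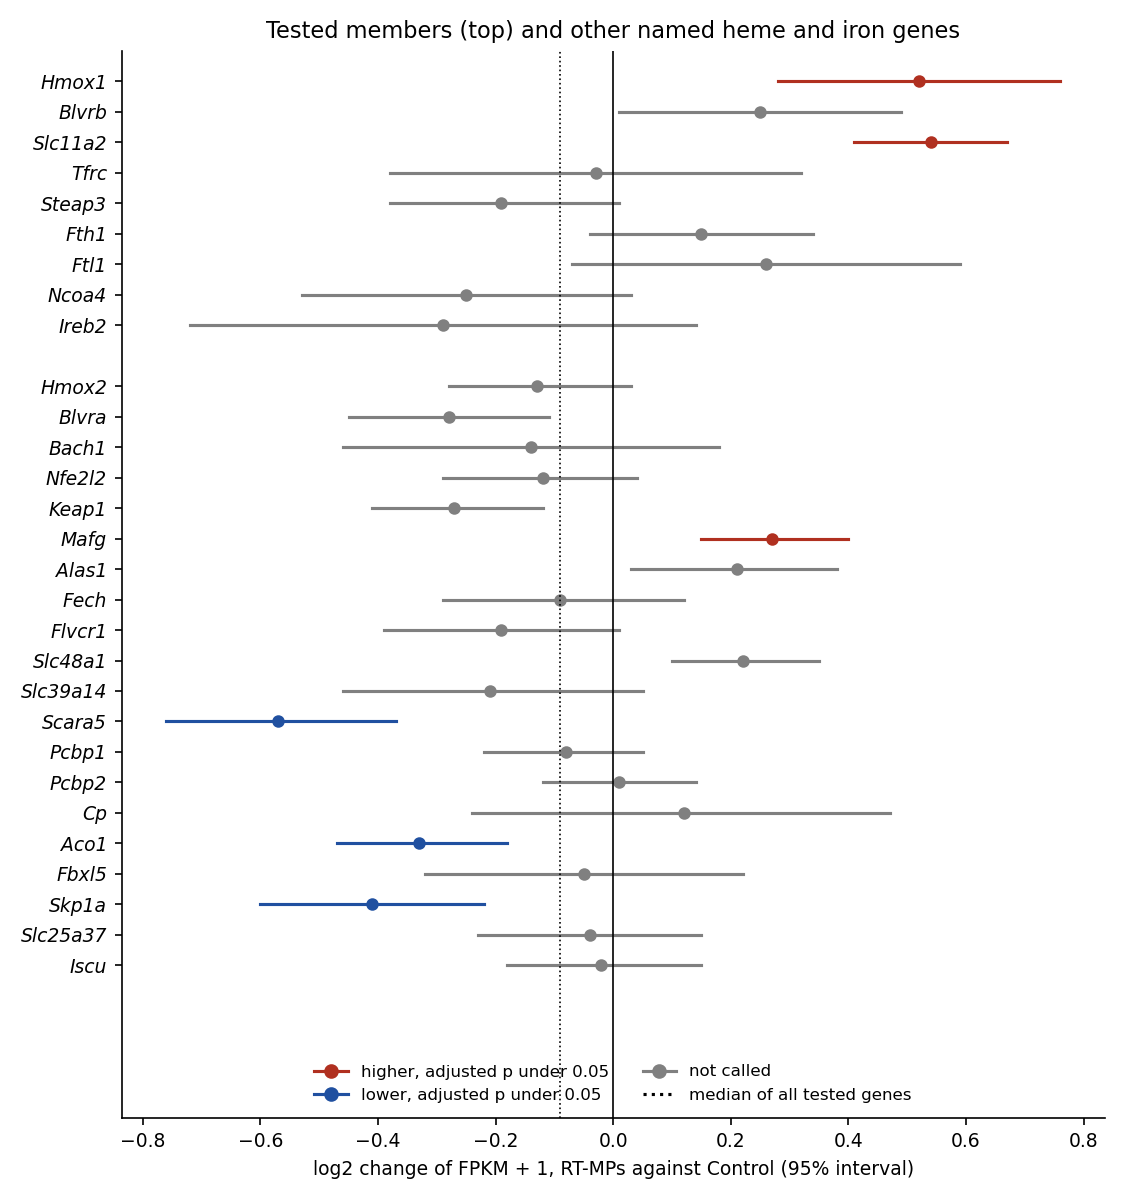
Log2 change of FPKM + 1 between RT-MPs and Control (x axis) with its 95% interval from limma for the 9 tested genes of the group (top) and other named heme and iron genes (bottom); the dotted line is the median of all tested genes, −0.09. Hmox1, Slc11a2 and Mafg are called higher and Scara5, Aco1 and Skp1a lower, and the intervals of Ireb2 and Tfrc are the widest among the 9.

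Across the 6 libraries, the tested genes whose log2(FPKM + 1) most resembled that of Hmox1 were Psap (Pearson's r = 0.996), Gm16439 (0.995), Hilpda (0.994), Dusp4 (0.994) and Jun (0.993). Psap encodes the lysosomal saposin precursor, Hilpda a hypoxia-induced lipid droplet protein, Dusp4 a MAP kinase phosphatase and Jun an AP-1 subunit. Their means went from 436 to 500 FPKM in Psap, 69.6 to 100 in Hilpda, 119 to 145 in Dusp4 and 92.5 to 115 in Jun. These correlations describe 2 groups of 3 libraries that share the group difference and the deviation of RT-MPs replicate 3, and they carry no test.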

How the data were processed

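The authors deposited FPKM per gene for 3 Control and 3 RT-MPs libraries. Reads were aligned with HISAT2 to mm10, per the submitters' processing notes; for the aligner's version, the counter, the annotation and strand use, the sources used here give nothing. Positions and summed exon lengths came from GENCODE M21 (54409 identifiers matched). Multiplying FPKM by exon length and a library total gave whole reads, within 0.1, for 98.8% to 99.0% of the low values checked. These totals served as depth. They were chosen to make that share high, so the share is not a separate check of depth. Reads summed over genes came to 102.6% of the total in every library, and why they exceed it was not tested.

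The groups were compared in limma 3.58.1 (R 4.3.3; lmFit, eBayes with trend=TRUE) on log2(FPKM + 1) of the 11915 genes with a mean of at least 1 FPKM, with two-sided p-values adjusted across these genes by Benjamini-Hochberg and no replicate term. The pseudocount understates changes of low genes. Ratios used exact two-sided permutation. Python 3.11.15, pandas 2.3.3 and scipy 1.17.1 read the tables. The fit was tested on simulated data that held no deviant library and no trend with exon length. That test therefore does not cover the deviation of RT-MPs replicate 3.

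Members, lists and the rule for named genes were chosen with earlier results of these data known. The rule took all 10 members, 21 genes whatever their result (some are not reported here), up to 4 called genes per other list and the 5 genes most correlated with Hmox1; Hamp, Hamp2, Maff, Mafk and the marker genes were named after their values were seen. Alternatives were 2 pseudocounts, 2 filters, 3 scalings, a replicate block, trend=FALSE, arrayWeights and leaving out each library; 3 more were added after seeing the data.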

Additional observations from a re-analysis of the deposited data

How the results depend on the processing

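Hmox1 and Slc11a2 were higher in RT-MPs in all 19 alternatives and called in 9 and 13 of them, with log2 changes of 0.22 to 0.62 and 0.25 to 0.65. Without a filter on low values 26 genes and 1 member (Slc11a2) were called, and no gene of the other iron and heme lists; Hmox1 kept 0.52 (adjusted p = 0.107). Median-ratio scaling called 231 genes higher and 136 lower, against 154 and 322, with 1 member and 2 list genes; Hmox1 was at 0.62 (0.0504), Tfrc at 0.07 and the list median at 0.03. Rescaling to a common sum (TPM), in which RT-MPs replicate 3 is lowered, called 56 genes, 0 members and 0 list genes (limma; 847 genes at an unadjusted p under 0.05), with Hmox1 at 0.22, Slc11a2 at 0.25, Fth1 at −0.15, Ftl1 at −0.05, Blvrb at −0.04 and the list median at −0.31. Quantile normalization called 195 higher and 153 lower, with Fth1 at −0.10, Tfrc at 0.03 and the list median at −0.01. With trend=FALSE 1 member and 1 list gene were called, Hmox1 at 0.52 (0.0526). With arrayWeights 4576 genes (38.4%), 4 members (Hmox1, Slc11a2, Fth1 and Blvrb) and 37 list genes were called, with Tfrc at 0.05 and the list median at −0.07. The median was also −0.07 with a pseudocount of 0.1. Of the additions, a common sum over protein-coding genes left 1 list gene, voom on recovered reads called 806 genes and 8 list genes (median −0.07), and removing each library's exon-length trend called 791 genes, 463 of them higher, and 7 list genes, with Tfrc at 0.08 and a list median of 0.03. The cause of these changes was not tested.

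Leaving out 1 library gave 0 to 2548 called genes, 0 to 2 members, 0 to 24 list genes, list medians of −0.07 to −0.05, Hmox1 at 0.43 to 0.59 and Slc11a2 at 0.52 to 0.55. No gene was called by limma without Control replicate 1 or 3 (1935 and 1839 at an unadjusted p under 0.05). Tfrc ranged from −0.17 to 0.14, the latter without RT-MPs replicate 3. The ratio of Tfrc to Fth1 ranged from −0.37 to 0.04 and that of Ireb2 to Aco1 from −0.11 to 0.22 (−0.01 without Control replicate 2). Deviations of same-numbered libraries correlated at 0.0959, −0.082 and −0.0288, within the −0.11 to 0.119 of libraries with unlike numbers. No pairing by replicate number was seen, but 3 libraries per group cannot settle whether the libraries were paired. With the replicate block limma called 0 genes, 0 members and 0 list genes (2620 genes at an unadjusted p under 0.05), with unchanged log2 changes of 0.52 for Hmox1 (adjusted p = 0.134) and 0.54 for Slc11a2 (0.103). Depth limits Slc40a1, at 0 to 6 reads.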
